A study of Rattus norvegicus with 12 samples.

Results

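Claudins, occludin and the zonula occludens proteins build the tight junction, and 9 of their genes were followed in the lumbar mammary gland of young female rats: Cldn1, Cldn3, Cldn4, Cldn5, Cldn7, Cldn8, Ocln, Tjp1 and Tjp3. They were taken by name from the annotation of the array, which gave 10 probes of 9 genes among 30367 probes of 26456 genes. Wistar dams received a diet with 17.0% protein (NP, normal protein diet) or an isocaloric diet with 8.8% protein (LP, low protein diet) throughout pregnancy, and litters of both groups were cut to 6 female pups at birth. NP and LP families had standard chow from birth on, through lactation until d21 (day of life 21) and after weaning until d28. The lumbar glands of 3 offspring of each diet were measured at d21 and of 3 of each at d28, on 12 one-colour Agilent arrays, 1 per rat. The study asked how protein restriction before birth bears on the gland in the period of pubertal duct growth. Visible lymph nodes had been removed from the glands. The labels do not say from which litters the rats came, so that the p values refer to the spread between these rats. Rats are named by the replicate names of the labels.

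Tight junctions seal the space between neighbouring epithelial or endothelial cells. Claudins are four-pass membrane proteins whose extracellular loops form the barrier and its ion pores, and which claudins a cell makes sets what its junctions let through. Occludin is another four-pass protein of the junctional strands, and the zonula occludens proteins, encoded by the Tjp genes, are scaffolds on the cytoplasmic side that bind claudins and occludin through PDZ and related domains and tie them to actin. In the mammary gland, claudins of the luminal epithelium line ducts and alveoli, and closure of these junctions accompanies the onset of milk secretion. Cldn5 is the claudin best known from endothelium, including the blood-brain barrier.

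All values are log2 signals relative to the 75th percentile of the gene spots on the same array, so that a value of 0 is a signal equal to that percentile and a step of 1 is a doubling. Levels of different genes come from different probes and were not compared. All 10 probes were well above background on all 12 arrays. The Cldn8 probe was the dimmest, with signals from 21.0 to 137.6, and the Cldn8 values are the most open to how background is removed. Differences were tested with limma over the 23209 probes that were well above background on at least 3 arrays. A difference was called when its adjusted p value was under 0.05 (Benjamini-Hochberg over all these probes).

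The probes of Cldn5, Cldn7, Cldn8 and Tjp3 are shown because they have a reading frame without a stop codon and lack the hexamer AATAAA. Those of Tjp1 also met this rule but were left out. Each is 60 bases long and the whole of it captures the labelled RNA, so no base is set in capitals. On build rn4 of the array annotation they lie at chr11_random:1224740-1224799 on the minus strand (Cldn5), at chr10:56812476-56812646 on the plus strand (Cldn7), at chr11:28421245-28421304 on the minus strand (Cldn8) and at chr7:9929908-9929967 on the plus strand (Tjp3). The Cldn7 probe covers 171 bases of the genome although it is 60 bases long, so that its ends lie apart in genomic DNA as they would across an intron. Exon and untranslated region annotations of rn4 were not used here. Each of these 4 probes can be read without a stop codon in at least 1 frame.
Cldn5: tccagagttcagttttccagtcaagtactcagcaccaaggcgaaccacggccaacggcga
Cldn7: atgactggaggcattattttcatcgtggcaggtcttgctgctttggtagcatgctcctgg
Cldn8: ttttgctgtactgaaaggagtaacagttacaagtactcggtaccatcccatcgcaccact
Tjp3: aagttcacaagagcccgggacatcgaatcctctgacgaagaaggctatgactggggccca

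The probes of Cldn1, Cldn3, Cldn4 and Ocln contain the polyadenylation hexamer AATAAA and are not printed. Tjp1 has a pair of probes on the minus strand of chromosome 1, a brighter one at chr1:119685220-119685279, which represents the gene here, and a dim one at chr1:119689604-119689663.

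On the scale of the 75th percentile, Cldn3, Cldn4, Cldn7, Cldn8 and Tjp3 had higher means in LP than in NP rats at d21 and at d28. Cldn5 and Cldn1 had lower means in LP rats at both ages. Relative to the luminal epithelial markers of the same array, described below, Cldn4 was at -0.11 and Tjp3 at -0.04 at d28. That scaling shifts all probes of an array alike, and the median of all probes was then at -0.48. On the 75th percentile scale the difference of Ocln was 0.41 at d21 and -0.09 at d28, and that of Tjp1 0.10 and -0.12. None of these differences was called. At d21, limma called 0 of the 9 members and 0% of all probes tested, with 0.861 as the lowest adjusted p of any member. An unadjusted p under 0.05 was reached by 3 members that were higher in LP rats (Cldn3, Cldn7 and Tjp3), against 2.1% of all probes higher and 2.26% lower. The 9 members differed by -0.33 to 1.24 with a median of 0.77, while the median of all probes was 0.01.

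**Figure D1:**
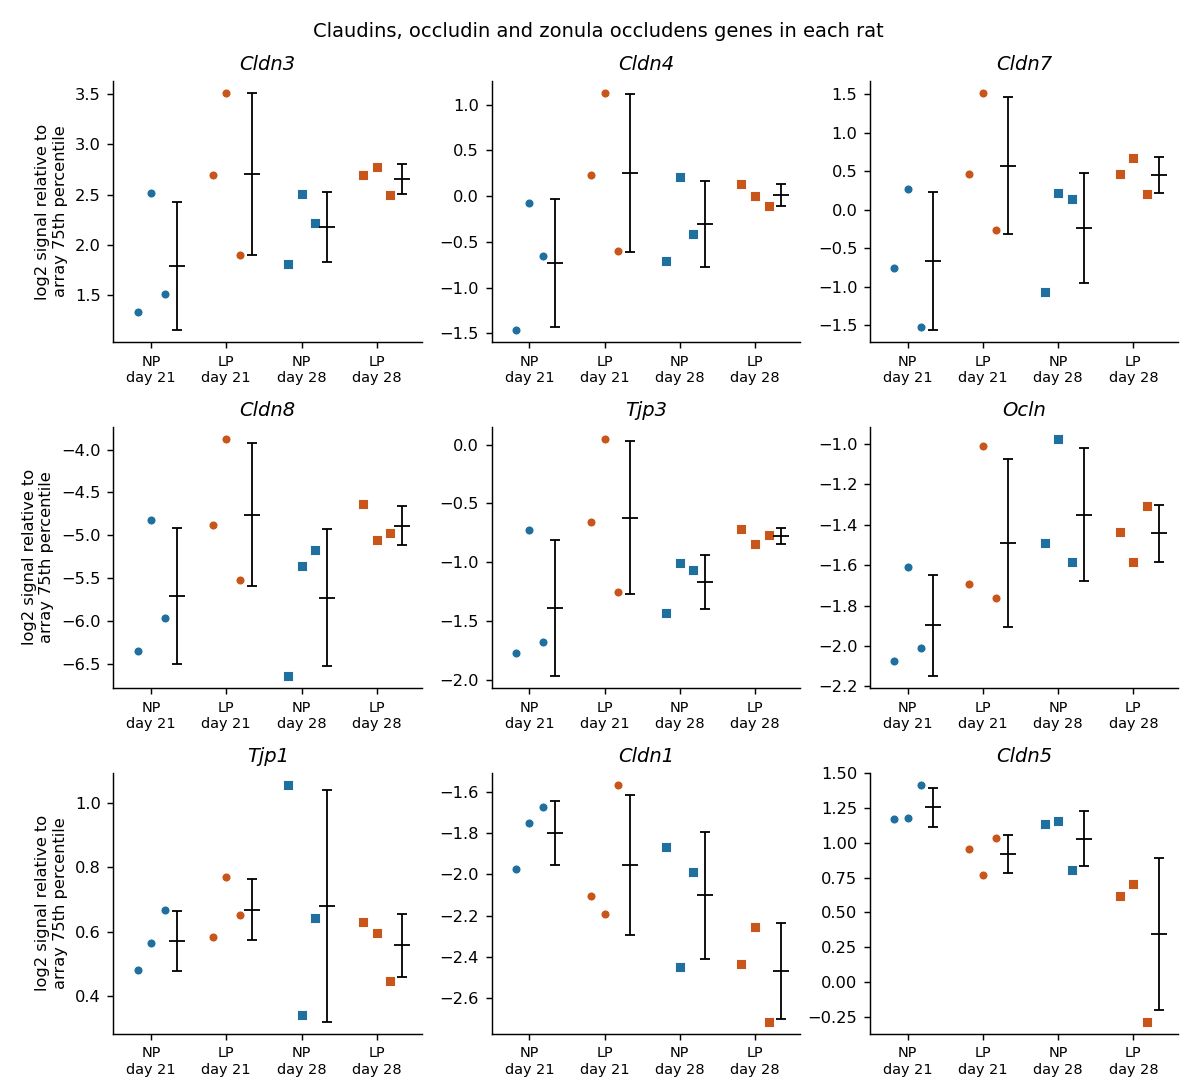
Log2 signal of each gene relative to the 75th percentile of the array (vertical axis) by diet and age (NP and LP, day 21 and day 28; horizontal axis), with 1 point per rat and the group mean ± SD in black (n = 3). Each panel has its own axis range. The LP day 21 rat with the highest Cldn3, at 3.51, is also the highest in Cldn4, Cldn7, Cldn8 and Tjp3, and all LP rats lie below all NP rats in Cldn5 at each day.

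Cldn3 and Cldn4, claudins of simple epithelia that also serve as receptors for a clostridial enterotoxin, followed each other closely. At d21, Cldn3 stood at 1.34, 2.52 and 1.51 in NP rats 4a, 5a and 6a and at 2.69, 3.51 and 1.90 in LP rats 4a, 6a and 7c. The groups overlapped, since NP rat 5a lay above LP rat 7c. The difference of 0.91 (SE 0.41) is a 1.88-fold higher mean in LP rats, with an adjusted p of 0.861 in limma and an exact two-sided permutation p of 0.2, where 3 rats against 3 cannot give less than 0.1. Cldn4 stood at -1.47, -0.07 and -0.65 in the NP rats and at 0.23, 1.13 and -0.60 in the LP rats in the same order. Here too NP rat 5a was above LP rat 7c, and the difference of 0.98 (SE 0.45; 95% interval -0.02 to 1.99) had an adjusted p of 0.861.

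Cldn7, a claudin that reaches along the lateral membrane of ductal epithelia, had the largest difference of the 9 genes at d21. Its values were -0.75, 0.26 and -1.52 in NP rats 4a, 5a and 6a and 0.46, 1.52 and -0.26 in LP rats 4a, 6a and 7c. NP rat 5a again exceeded LP rat 7c. The difference was 1.24 (SE 0.54; 95% interval 0.03 to 2.45), or 2.37-fold, with an adjusted p of 0.861. Cldn8, known from the tight epithelia of the distal nephron, stood at -6.35, -4.83 and -5.96 in NP rats and at -4.88, -3.87 and -5.53 in LP rats, with a difference of 0.95 (SE 0.52). NP rat 5a lay between the LP rats. For Tjp3, the zonula occludens protein most restricted to epithelia, NP rats had -1.77, -0.73 and -1.68 and LP rats -0.66, 0.05 and -1.26. The difference was 0.77 (SE 0.34; 1.71-fold), and again the groups overlapped.

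Single rats moved these d21 differences by more than 1.5 times. Without LP rat 6a the differences were 0.51 for Cldn3, 0.54 for Cldn4, 0.77 for Cldn7, 0.51 for Cldn8 and 0.44 for Tjp3, and without LP rat 7c they were 1.31, 1.41, 1.66, 1.34 and 1.09. The number of members with an unadjusted p under 0.05 was 0 without NP rat 4a or 6a or LP rat 4a or 6a, and 5 without NP rat 5a or LP rat 7c. All 5 differences were above 0 each time.

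Ocln stood at -2.07, -1.61 and -2.01 in NP rats and at -1.69, -1.01 and -1.76 in LP rats at d21. The difference was 0.41 (95% interval -0.11 to 0.93), and 0.17 without LP rat 6a. Tjp1, the scaffold that epithelia and endothelia share, was close to equal in the groups, at 0.48 to 0.67 in NP and 0.58 to 0.77 in LP rats, a difference of 0.10 (95% interval -0.26 to 0.46). Its dim probe gave a difference of 0.31 (SE 0.17; adjusted p 0.861), with all LP rats above all NP rats at d21 and overlapping groups at d28. Cldn1, the main claudin of the epidermal barrier, differed by -0.15 (95% interval -0.62 to 0.31), with overlapping groups.

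Cldn5 was lower in each LP rat than in any NP rat at d21. It stood at 1.17, 1.18 and 1.42 in NP rats 4a, 5a and 6a and at 0.96, 0.77 and 1.04 in LP rats 4a, 6a and 7c. The difference was -0.33 (SE 0.24; 95% interval -0.86 to 0.19; adjusted p 0.862 in limma). Among the probes that represent the 9 members, that of Cldn5 alone had groups that did not overlap at d21, against 11.5% of all probes.

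At d28, 0 members and 0% of all probes were called. An unadjusted p under 0.05 was reached by 1 member, Cldn5, which was lower in LP rats, against 6.09% of all probes lower and 1.98% higher. Groups did not overlap for Cldn5, Cldn8 and Tjp3, that is for 3 of 9 members against 16.8% of all probes. The members differed by -0.69 to 0.84 with a median of 0.32, and the median of all probes was -0.05.

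**Figure D2:**
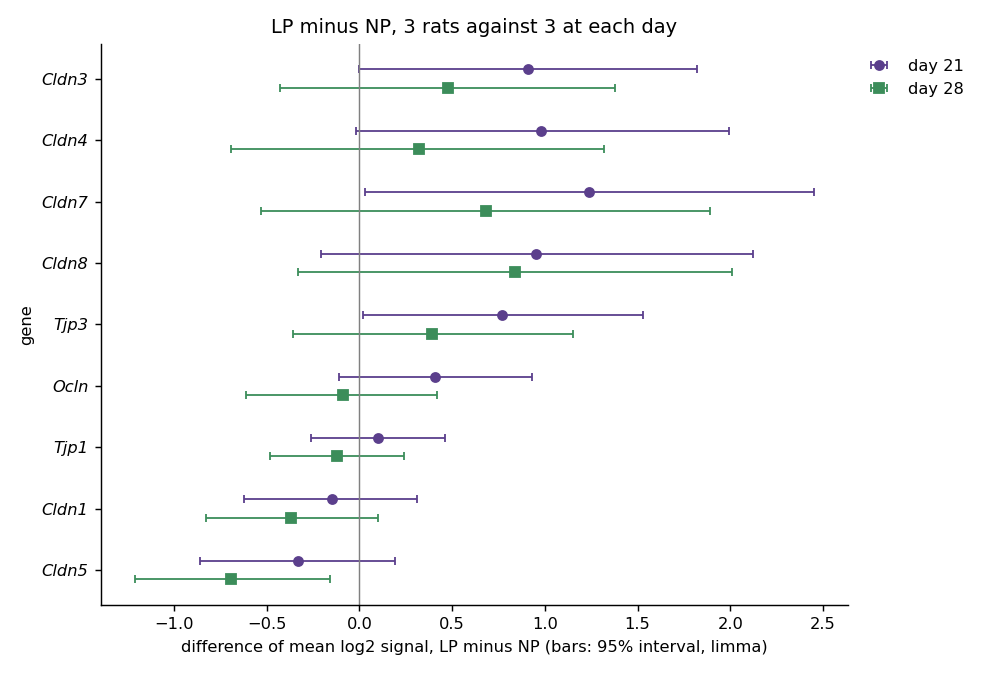
Difference of the mean log2 signal between LP and NP rats (horizontal axis) for each gene (vertical axis) at day 21 and day 28, with the 95% interval from limma. The points of Cldn3, Cldn4, Cldn7, Cldn8 and Tjp3 lie above 0 at both days (relative to luminal markers, Cldn4 and Tjp3 were at -0.11 and -0.04 at day 28, with the median of all probes at -0.48) and those of Cldn1 and Cldn5 below. The d28 interval of Cldn5, from -1.21 to -0.16, does not reach 0, although its adjusted p was 0.581.

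The LP rats were closer to each other at d28 than at d21 in the 5 genes that were higher. Cldn3 was 1.81, 2.50 and 2.22 in NP rats 4f, 5f and 6f and 2.70, 2.77 and 2.49 in LP rats 4f, 6f and 7f. LP rat 7f was just under NP rat 5f, and the difference was 0.48 (SE 0.41), or 0.29 without NP rat 4f. Cldn7 stood at -1.06, 0.22 and 0.13 in NP rats and at 0.46, 0.67 and 0.21 in LP rats. NP rat 4f stood apart at the low end, and without it the difference of 0.68 (SE 0.54) became 0.27.

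Cldn8 was above all NP rats in each LP rat at d28. It stood at -6.64, -5.36 and -5.18 in NP rats and at -4.63, -5.06 and -4.98 in LP rats. LP rats stood 0.84 higher in the mean (SE 0.52), and limma gave 0.587 as the adjusted p. Without NP rat 4f they stood 0.38 higher. With normexp in place of the background subtraction by the scanner software, the value was 0.35. The normexp setting adds an offset of 50 to each signal, and the Cldn8 signals at d28 were 20.99 to 81.94. An offset of that size narrows log2 differences of such dim signals. Its part was not separated from that of the background model. Tjp3 stood at -1.43, -1.01 and -1.06 in NP rats and at -0.72, -0.85 and -0.77 in LP rats, again without overlap, with a difference of 0.39 (SE 0.34; adjusted p 0.651) that was 0.26 without NP rat 4f. Cldn4 differed by 0.32 (95% interval -0.69 to 1.32), with NP rat 5f, at 0.21, above the 3 LP rats, and the difference was 0.12 without NP rat 4f and 0.58 without NP rat 5f. Ocln differed by -0.09 (95% interval -0.61 to 0.42) and Tjp1 by -0.12 (95% interval -0.48 to 0.24).

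For Cldn5 the values at d28 were 1.14, 1.16 and 0.80 in NP rats 4f, 5f and 6f and 0.62, 0.70 and -0.29 in LP rats 4f, 6f and 7f. All LP rats were below all NP rats, and LP rat 7f lay far below the others. The difference was -0.69 (SE 0.24), a mean of 0.622 times that of NP rats, with an unadjusted p of 0.0157 and an adjusted p of 0.581 in limma. Without LP rat 7f it was -0.37. NP arrays were all hybridized in 1 row of a slide, whereas 2 of 3 LP arrays per age were in the other row, and with slide row as a covariate the difference was -0.53 (unadjusted p 0.102). Cldn1 stood at -1.87, -2.45 and -1.99 in NP rats and at -2.43, -2.25 and -2.72 in LP rats, a difference of -0.37 (SE 0.21) with overlapping groups.

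Over both days, 0 members and 0% of all probes were called. An unadjusted p under 0.05 in limma was reached by 4 members that were higher in LP rats (Cldn3, Cldn7, Cldn8 and Tjp3) and by Cldn5, which was lower, against 4.33% of all probes higher and 7.54% lower. The differences were 0.96 (SE 0.38) for Cldn7, 0.90 (SE 0.37) for Cldn8, 0.69 (SE 0.29) for Cldn3 and 0.58 (SE 0.24) for Tjp3, each with an adjusted p of 0.418, and 0.65 (SE 0.32) for Cldn4 with an adjusted p of 0.422. For Cldn5 the difference was -0.51 (SE 0.17; adjusted p 0.418), and 6 of 6 LP rats were below all NP rats of their own day. Its exact two-sided permutation p, with rats exchanged within each day, was 0.005, the smallest value that 2 sets of 3 against 3 can give. How many of all probes reach that value was not counted, here or between the days. At single days the groups did not overlap for 11.5% of all probes (d21) and 16.8% (d28), in either direction. The number of members with an unadjusted p under 0.05 went from 5 to 0 with the array row as a covariate, to 1 without NP rat 4a, 6a or 4f or LP rat 6a or 4f, to 2 without LP rat 4a or 6f, to 3 without LP rat 7f, and to 7 without LP rat 7c or NP rat 5f. The LP-NP difference was smaller or more negative at d28 than at d21 in all 9 genes, with changes from -0.12 (Cldn8) to -0.66 (Cldn4), and each of these changes had an adjusted p of 1 in limma, as 0% of all probes were called for the change.

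Cldn3, Cldn4, Cldn7, Cldn8 and Tjp3 went up and down together from rat to rat, whatever the diet. Over the 12 rats Pearson's r between any pair of them was 0.84 to 0.98, highest for Cldn3 with Tjp3. It was 0.76 to 0.98 when each rat was taken relative to its own group. Ocln followed the 5 genes with r of 0.57 to 0.78. Tjp1 did not follow them (r -0.23 to -0.03), and r was -0.53 to -0.43 for Cldn1 and -0.46 to -0.32 for Cldn5. Relative to the group means it was -0.50 to -0.43 for Cldn1, but -0.26 to -0.03 for Cldn5. Cldn1 and Cldn5 were alike with r 0.75, which was 0.46 within groups. All these values come from the same 12 arrays and are descriptions.

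The level of luminal epithelium was taken as the mean log2 signal of 12 markers (Krt7, Krt8, Krt18, Krt19, Epcam, Cd24, Muc1, Elf3, Ehf, Spint1, St14 and Prom1). It was -1.24 to -0.20 in NP and -0.78 to 0.68 in LP rats at d21, and -1.13 to -0.31 in NP and -0.30 to -0.07 in LP rats at d28. All 12 markers had higher means in LP rats at each day, 1 of them with an unadjusted p under 0.05 at d21 and 0 at d28, and 0 were called. The LP-NP difference of the level was 0.75 at d21 and 0.43 at d28, with an exact permutation p of 0.055 over both days. Single rats moved it, to 0.37 at d21 without LP rat 6a and to 0.19 at d28 without NP rat 4f. The markers of basal and myoepithelial cells differed by 0.64 over both days (exact permutation p 0.065). In whole-gland RNA, fewer cells of a type and less RNA per cell cannot be told apart.

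Of the 9 members, 6 correlated with the luminal level over the 12 rats with a permutation p under 0.05 after Benjamini-Hochberg adjustment over 10 relations. The same 6 had an unadjusted permutation p under 0.05 and a positive r, against 9.59% of all other tested probes with a positive and 8.99% with a negative r, and 5 members had an r of 0.94 or more, against 0.682% of those probes. Pearson's r was 0.98 for Cldn3, 0.97 for Tjp3, 0.95 for Cldn4 and Cldn8 and 0.94 for Cldn7, with Spearman's rho of 0.97, 0.92, 0.89, 0.89 and 0.96. Their adjusted permutation p values were 3.3e-05 to 8e-05 for r and 0.0001 to 0.0007 for rho. For Cldn3, Cldn4 and Cldn8 the unadjusted p of r was 1e-05, the smallest that 100000 permutations can give. Without the 2 rats farthest from the median level (NP 4a and LP 6a of d21) r was 0.90 to 0.96, with unadjusted permutation p values of 0.00013 to 0.00055. Within d21, r was 0.94 to 1.0 (adjusted permutation p 0.0046 to 0.021 over all 720 orders), and within d28 it was 0.86 to 0.98 (adjusted permutation p 0.014 to 0.12).

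Ocln had an r of 0.69 with the luminal level (adjusted permutation p 0.02) and a rho of 0.42 (adjusted permutation p 0.2). This relation was weaker without the 2 rats at the ends of the range: r was 0.37 without NP rat 4a and LP rat 6a (permutation p 0.3). The r of Ocln was 0.96 within d21, 0.17 within d28 and 0.79 relative to the group means. With single arrays left out it was 0.55 to 0.77. Tjp1 had r -0.15 (adjusted permutation p 0.65) and Cldn1 r -0.46 (adjusted permutation p 0.16), with rho of -0.10 and -0.48. The r of Tjp1 differed in sign between the days, at 0.61 within d21 and -0.82 within d28 (adjusted permutation p 0.19 and 0.12). Without NP rat 4a and LP rat 6a of d21 it was -0.69 (unadjusted permutation p 0.016). For Cldn1 the r was -0.61 within d21, -0.69 within d28 and -0.58 without these 2 rats (unadjusted permutation p 0.084). Cldn5 had r -0.39 with the luminal level (adjusted permutation p 0.23) and 0.77 with the mean of 11 endothelial markers (adjusted permutation p 0.0027; rho 0.78, adjusted permutation p 0.0063). Without the 2 rats farthest in endothelial level (LP 6f and 7f of d28) the latter was 0.70 (permutation p 0.023). It was 0.73 within d21 and 0.72 within d28, each with an adjusted permutation p of 0.14 or more, and 0.46 relative to the group means.

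**Figure D3:**
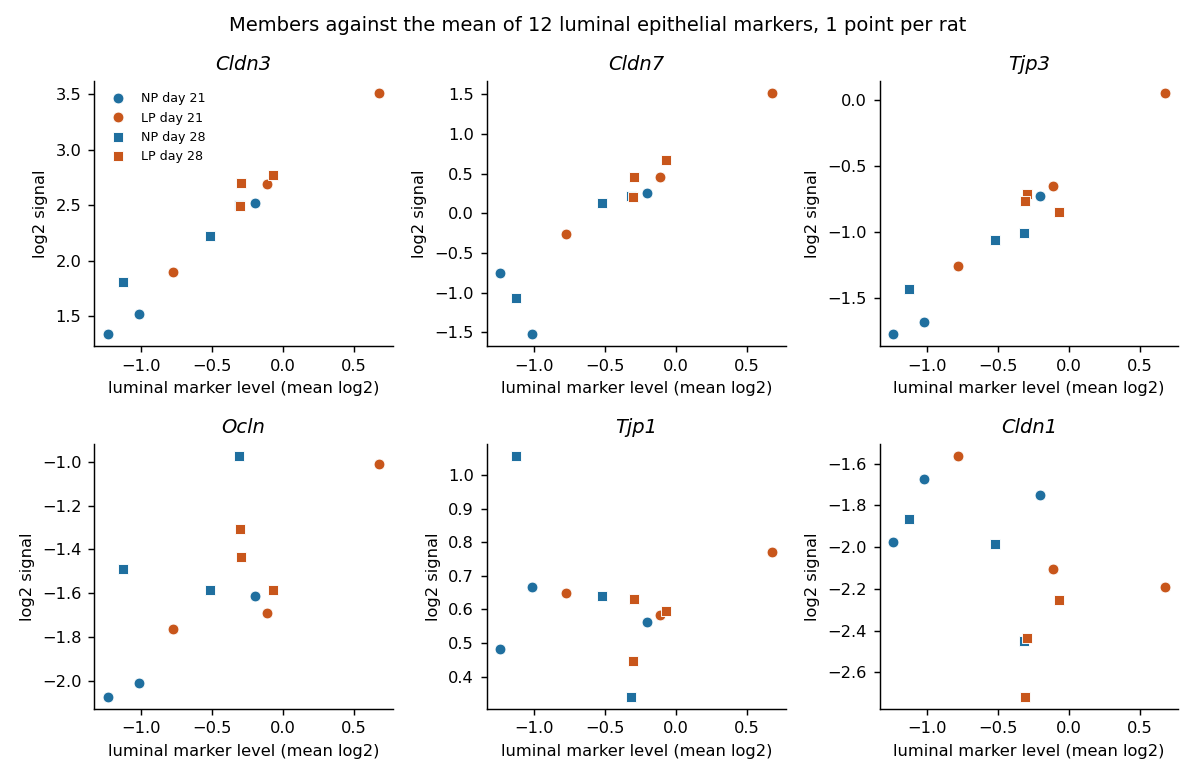
Log2 signal of 6 genes (vertical axis, own range in each panel) against the mean log2 signal of 12 luminal epithelial markers (horizontal axis) in the same rat, with 1 point per rat. Cldn3, Cldn7 and Tjp3 lie along a rising line with r of 0.98, 0.94 and 0.97, and Ocln scatters more (0.69). Over all 12 rats Tjp1 and Cldn1 do not rise (-0.15 and -0.46), while the r of Tjp1 was 0.61 within day 21 and -0.82 within day 28.

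With the luminal markers of each array as the reference in place of its 75th percentile, the LP-NP difference over both days became 0.10 for Cldn3, 0.06 for Cldn4, 0.37 for Cldn7, 0.31 for Cldn8 and -0.01 for Tjp3. On this scale Ocln was -0.43, Tjp1 -0.60, Cldn1 -0.85 and Cldn5 -1.10, but the median of all probes also moved, to -0.61. The scaling subtracts the same amount from all probes of an array. Values relative to that median therefore restate the differences on the 75th percentile scale, apart from the median there, and are no separate result. They were 0.60 to 0.98 for the 5 genes above, 0.18 for Ocln, 0.01 for Tjp1, -0.24 for Cldn1 and -0.49 for Cldn5. The luminal reference was chosen after the values were seen.

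Other cell types also differed between these rats. LP rat 6a of d21, with the highest value of each of the 5 genes, had a mean of -5.42 for 8 lymphocyte markers against -0.42 to 0.77 in the 11 other rats, and it resembled the other arrays least (median r 0.96, and 0.974 to 0.989 for each other rat). Lymphocyte markers differed between LP and NP rats by -1.37 over both days (exact permutation p 0.005), with 8 of 8 markers lower in LP rats at each day. Without LP rat 6a this difference was -0.45 over both days, and at d21 alone it went from -2.15 to -0.32. The 11 endothelial markers differed by -0.06 at d21 and by -0.21 at d28 (exact permutation p 0.5 and 0.1), beside the differences of Cldn5 of -0.33 and -0.69. Epidermal markers were at -1.54 in LP rat 6a and at -2.66 in NP rat 5a of d21 and at -6.81 to -6.12 in the 10 other rats, while skeletal muscle markers ranged from -4.0 to 3.44, liver markers from -5.26 to -1.24 and adipocyte markers from 2.82 to 3.30 over the rats. The part of these cell types in the results was not tested.

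The second comparison asked how the same genes stood at the beginning and the end of the week after weaning. All d21 arrays lay on a slide of their own and all d28 arrays on another, and the effect of age cannot be told apart from that of the slide. Within NP rats 0 members and 0.25% of all probes were called between the days, within LP rats 0 members and 0% of all probes, and over both diets 0 members and 1.81% of all probes. Unadjusted p values under 0.05 over both diets were reached by Cldn1 and Cldn5, both lower at d28, against 9.35% of all probes lower and 9.89% higher.

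Cldn5 was lower at d28 than at d21 in either diet, without overlap. From the values above, NP rats went from a mean of 1.26 ± 0.14 to 1.03 ± 0.20 and LP rats from 0.92 ± 0.14 to 0.34 ± 0.55 (SD, n = 3). The difference was -0.22 (SE 0.24) in NP rats, -0.58 (SE 0.24; adjusted p 0.457) in LP rats and -0.40 (SE 0.17; adjusted p 0.231 in limma; exact permutation p 0.005, the smallest possible) over both diets. Without LP rat 7f of d28 it was -0.26 in LP rats and -0.24 over both diets. The mean of the endothelial markers differed by -0.25 between d28 and d21 over both diets (exact permutation p 0.015), with 8 of 11 lower at d28. Of the 11 markers, 6 had an unadjusted p under 0.05 in limma, all lower, against 9.35% of all probes lower. Limma called 2 of the 11, both lower, against 1.81% of all probes called.

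Cldn1 was lower at d28 in LP rats without overlap, at -2.10, -2.19 and -1.56 in rats 4a, 6a and 7c and at -2.43, -2.25 and -2.72 in rats 4f, 6f and 7f. The difference was -0.52 (SE 0.21; adjusted p 0.457) in LP rats and -0.30 (SE 0.21) in NP rats, where the groups overlapped. Over both diets it was -0.41 (SE 0.15; adjusted p 0.176 in limma; exact permutation p 0.015). In LP rats it was -0.32 without LP rat 7c.

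Ocln was higher at d28 in NP rats, where each of the values of -1.49, -0.97 and -1.58 exceeded those of d21, and the difference was 0.55 (SE 0.23; adjusted p 0.362). In LP rats the difference was 0.05 (SE 0.23), with the groups overlapping. The test of the change of the LP-NP difference gave -0.50 for Ocln (SE 0.33; adjusted p 1 in limma). In NP rats 2 of 9 members, Ocln and Cldn5, and in LP rats 2 of 9, Cldn1 and Cldn5, had days that did not overlap, against 18.7% of all probes in either diet. The unadjusted p was under 0.05 for Ocln in NP rats, against 7.9% of probes higher and 4.9% lower, and for Cldn1 and Cldn5 in LP rats, against 4.46% of probes higher and 5.65% lower.

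Cldn3, Cldn4, Cldn7, Cldn8, Tjp1 and Tjp3 differed between the days by -0.07 to 0.17 over both diets, and none of these 6 had an adjusted p under 0.775. The interval of Cldn3, from -0.47 to 0.81, and that of Cldn7, from -0.70 to 1.01, show what these arrays could resolve.

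**Figure D4:**
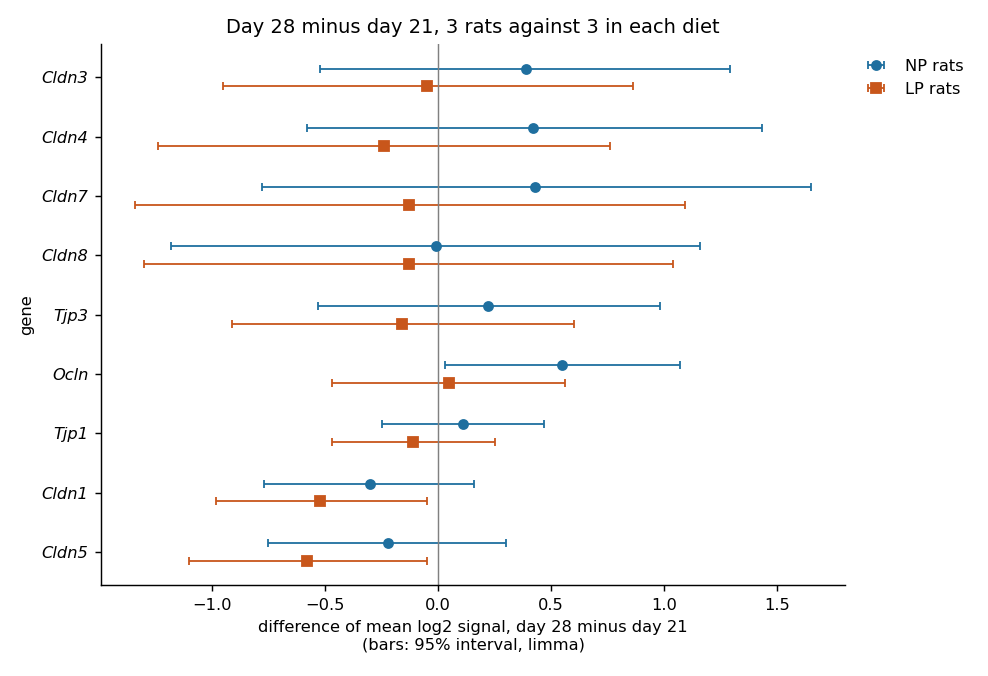
Difference of the mean log2 signal between day 28 and day 21 (horizontal axis) for each gene (vertical axis) in NP and LP rats, with the 95% interval from limma (n = 3 rats at each day). Cldn1 and Cldn5 lie below 0 in both diets and Ocln lies above 0, at 0.55 in NP and 0.05 in LP rats.

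Other genes of the junction were read from lists of 48 tight junction genes, of which 46 were on the array by name and 39 were tested, and 17 genes of adherens junctions and desmosomes. At d21 the mean was higher in LP rats for 28 of the 39 tight junction genes and lower for 11 (median 0.32), and 10 had an unadjusted p under 0.05, all higher, against the 2.1% of all probes higher and 2.26% lower given above. At d28, 20 were higher and 19 lower with a median of 0.09, and 2 had an unadjusted p under 0.05, both lower, a share near the 6.09% of all probes that were lower. None of them was called at either day. By group, 5 of 5 tricellular and MARVEL genes were higher at d21 (median 0.64), as were 6 of 7 scaffolds (0.37), 5 of 8 polarity genes (0.24), 4 of 6 genes of the JAM family (0.30) 5 of 9 other claudins (0.07) and 3 of 4 junction regulators (0.18). At d28 the same groups had 3 of 5 (0.33), 5 of 7 (0.18), 4 of 8 (0.04), 3 of 6 (0.03), 2 of 9 (-0.16) and 3 of 4 (0.26) higher, in the same order. Of the genes of adherens junctions and desmosomes 16 of 17 were higher at d21 (median 0.37) and 12 of 17 at d28 (0.18). Of these 17, 0 had an unadjusted p under 0.05 in limma at d21 and 1, which was lower, at d28, and 0 were called.

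**Figure D5:**
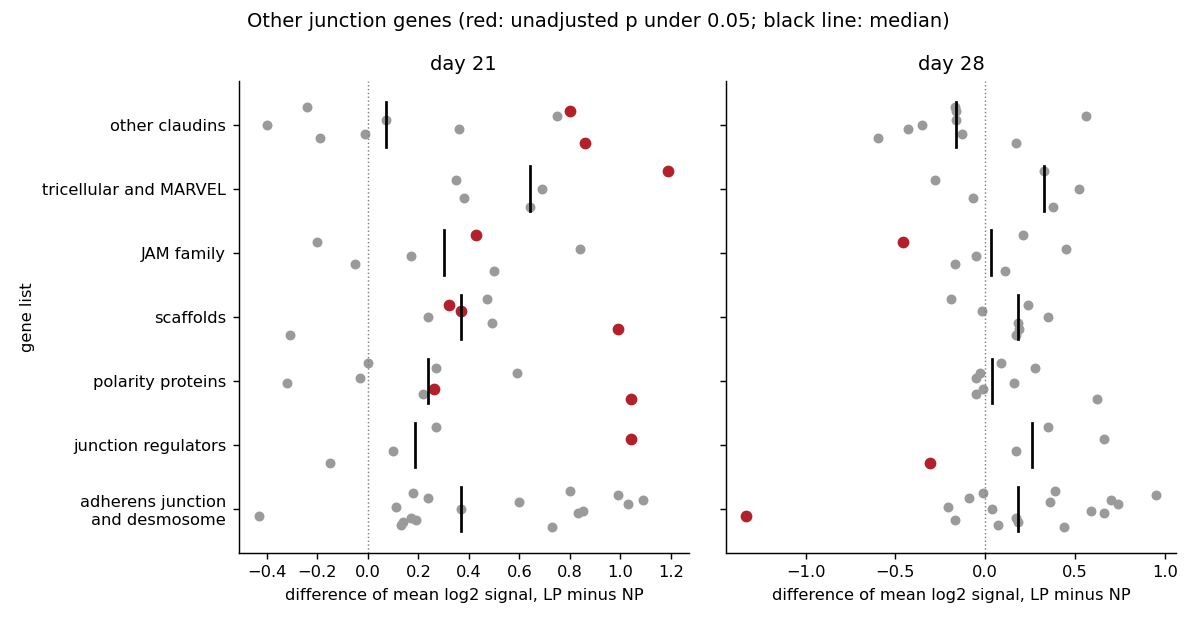
Difference of the mean log2 signal between LP and NP rats (horizontal axis) for the other junction genes by list (vertical axis) at day 21 and day 28, with 1 point per gene, red where the unadjusted p of limma was under 0.05 and a black line at the median of the list. Medians at day 21 run from 0.07 (other claudins) to 0.64 (tricellular and MARVEL), and the lowest point at day 28 is Dsg2 at -1.33, which was not above background in LP rats of that day. No gene was called after adjustment.

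Among them Crb3, a polarity protein of the apical membrane, followed Cldn7 closely. It stood at -3.30, -2.32 and -3.62 in NP and at -2.07, -1.24 and -2.81 in LP rats at d21, a difference of 1.04 (SE 0.43; unadjusted p 0.0361 in limma; adjusted p 0.861). Marveld3, a relative of occludin, and Cldn6 were not well above background in any NP rat and were so in 2 of 3 LP rats at d21. A ratio was formed of the mean of the brighter group to a floor for the dimmer group. The floor is the mean, over the arrays of the dimmer group, of the weakest signal still well above background on the array (or of the measured value, if greater). It is taken over the array and not for the probe in question, so that the ratio is no lower bound of the fold. The ratio was 2.1 for Marveld3 and 1.74 for Cldn6, both higher in LP rats (adjusted p 0.861 for each in limma). At d28 Dsg2, a desmosomal cadherin, stood at -5.86, -6.37 and -6.17 in NP rats and at -6.99, -7.85 and -7.56 in LP rats, where it was not well above background on any array. The same ratio was 2.48 for Dsg2, which was lower in the LP group (adjusted p 0.581 in limma). Jam2, an adhesion molecule of endothelium, differed by -0.46 at d28 (SE 0.17; unadjusted p 0.0219), and Arhgef2, a regulator that is held at junctions, by -0.31 (SE 0.11; unadjusted p 0.018).

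Over both days 8 of the 39 tight junction genes had an unadjusted p under 0.05 and were higher in LP rats, and 2 were lower, against 4.33% and 7.54% of all probes. Between the days, over both diets, 0 were higher and 8 lower with an unadjusted p under 0.05, against 9.89% and 9.35% of all probes. The lowest p was that of Cldn11, a claudin of myelin and of Sertoli cells, which was between -5.40 and -4.79 in the 6 rats of d21 and between -7.05 and -5.51 in the 6 rats of d28. The ages did not overlap, and the difference was -0.94 (SE 0.22; adjusted p 0.068 in limma). Ctnna1, the α-catenin of adherens junctions, differed by -0.30 (SE 0.09; adjusted p 0.123) and Csda, a Y-box factor that binds zonula occludens scaffolds, by -0.22 (SE 0.08; adjusted p 0.179).

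To see which other genes had the same pattern over rats, each member was correlated over the 12 arrays with 11633 genes that were above background on all arrays. The values of r describe likeness over 12 rats, and the highest of so many are high by selection. Spint2 (0.990), Cdcp1 (0.989) and Fxyd3 (0.984) were most like Cldn3, and Tcfap2b (0.984), Spint2 (0.980) and Cdcp1 (0.980) most like Tjp3. Ptk7 (0.986), Wwc1 (0.982) and Crb3 (0.980) led for Cldn7, Epn3 (0.982) and Pof1b (0.975) were among the 3 most like Cldn8, and Clec2d (0.972), Erbb2 (0.966) and Prss8 (0.963) led for Cldn4. Different genes led for the other members. Flt4 (0.948), Susd4 (0.943) and Rps6ka2 (0.937) were most like Cldn5, Foxc2 (0.944) and Znf536 (0.938) among the 3 most like Cldn1, Lrrc38 (0.911), Phyhip (0.888) and Rgs6 (0.874) most like Ocln, and Enpp3 (0.949), Acvr2b (0.943) and Tmem150a (0.930) most like Tjp1.

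Because 5 members moved together, the promoters of the genes were searched for 2 sequences that are known targets of epithelial regulators. Windows from 250 bases before to 50 bases after the start of 33469 genes came from RefSeq (GRCr8) and held 8 of the 9 members, all but Cldn4. CAGGTG, an E-box that repressors of the Snail and Zeb families can bind, was searched on both strands and occurred in 18.8% of all promoters. It was found in 4 of the 8 members, 5 times in Cldn7, 2 times in Ocln and 1 time each in Cldn3 and Tjp3. No match lay in the windows of Cldn1, Cldn5, Cldn8 and Tjp1. A window with 5 or more matches was found for 4 genes of all, or 0.012%. AACCGGTT, which grainyhead-like factors can bind, occurred in 0.173% of all promoters and in 0 of the 8 members. The 250 bases before the Cldn7 start, at chr10:55188420-55188669 on the plus strand of GRCr8, are shown because this promoter held the most matches among the members. Capitals mark the 4 matches on either strand within them, and the fifth spans the start itself.
Cldn7 promoter: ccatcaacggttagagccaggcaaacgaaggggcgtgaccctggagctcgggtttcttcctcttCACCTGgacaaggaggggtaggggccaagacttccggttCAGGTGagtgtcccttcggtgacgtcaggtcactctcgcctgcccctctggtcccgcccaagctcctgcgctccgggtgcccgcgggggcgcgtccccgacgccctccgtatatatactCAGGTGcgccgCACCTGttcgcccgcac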

How the data were processed

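Cy3-labelled RNA of lumbar mammary glands was hybridized to Agilent rat arrays (12 arrays, 1 per rat). The authors deposited for each array the processed intensity of every spot from Agilent Feature Extraction 10.7.3.1, after background subtraction and before scaling between arrays. They also deposited a table in which each array's signal is given as a ratio to its median, a constant multiple of the scanner values (largest relative deviation 6.56e-05), used as an alternative. Control spots (4259 of each array) and spots flagged as outliers (259 to 766 per array) were left out here, the 75th percentile of the 58717 gene spots (signal 1451.4 to 2369.6) was subtracted on the log2 scale, and spots of a probe were averaged. Of the gene spots, 74.8% to 79.6% per array were well above background and 0 were saturated. The number of arrays limits precision.

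Groups came from the sample labels. Probes well above background on at least 3 arrays were tested in 1 limma fit of the 4 group means (limma 3.58.1, R 4.3.3, prior degrees of freedom 1.95), two-sided. The paper called genes with the error model of Rosetta Resolver, which cannot be repeated from these files. A gene is represented by its probe with the highest mean signal. In simulated data for LP against NP at d28, with 200 of 23209 probes changed, 90 were called at a log2 change of 1 and 177 at 2. Of the unchanged probes 1 and 14 were called. The simulated probes varied independently of each other, whereas several members here moved together from rat to rat, so these counts do not describe the members. Correlations used 100000 permutations (scipy 1.17.1, numpy and pandas for the tables). The members, the lists and the tests were chosen with earlier results of these data known. Named besides the members are, by rule, the 3 junction genes with the lowest p in each diet comparison and between the days, and the 3 genes most like each member, of which 2 are not reported here. Of the list genes, 3 were not found by name, and Cldn17, which a table of the paper names from these samples, was too dim to test, as were Cldn2, Cldn15, Cldn16, Cldn18, Cldn20 and Amot.

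Replicate numbers of the labels were checked for pairing. Deviations from the group means correlated by -0.06 to 0.38 in 6 pairs of the same diet and number and by 0.09 to 0.13 in 4 pairs of the same number and day, and the labels do not say what a number marks, so the samples were not treated as paired. Alternatives were quantile normalization, normexp background, no filter, a stricter filter, an intensity trend with robust estimation, the replicate number or the slide row in the model, the deposited table, the mean of a gene's probes, the compared groups alone, and leaving out each array. A scaling to luminal markers and the marker levels without each array were added after seeing the data.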

Additional observations from a re-analysis of the deposited data

How the results depend on the processing

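No member was called in any comparison under any alternative, so the count of called members was 0 throughout. With the replicate number as a block, 0 members and, between the days over both diets, 21 of all probes were called, against 421 without it, and the replicate block turned the d28 difference of Ocln between LP and NP rats to 0.11. It changed no other direction reported here and no call. The LP-NP differences of Cldn3, Cldn4, Cldn7, Cldn8 and Tjp3 at d21, at d28 and over both days stayed above 0, and those of Cldn1 and Cldn5 below 0, under every alternative other than the scaling to luminal markers, and without each array. With normexp the d28-d21 difference over both diets became 0.09 for Cldn8 and -0.04 for Tjp3, and the LP-NP difference of Tjp1 over both days 0.01, or 0.02 as the mean of its probes. A scaling relative to the luminal markers, added after seeing the data, puts the median of all probes at -0.74 at d21 and -0.48 at d28. With it the LP-NP difference became -0.11 for Cldn4 and -0.04 for Tjp3 at d28, and -0.34 for Ocln and -0.65 for Tjp1 at d21. Over both days it became -0.43 for Ocln and -0.01 for Tjp3. The change of the LP-NP difference between the days became 0.10 for Cldn1 and Tjp1 and 0.20 for Cldn8. The turns under the luminal scaling follow from the scaling itself. It subtracts the LP-NP difference of the luminal level (0.75 at d21, 0.43 at d28 and 0.59 over both days) from that of each gene. The cause of the other turns was not tested.

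Leaving out 1 array at a time, the d28-d21 difference over both diets ranged from -0.03 to 0.37 for Cldn3, -0.12 to 0.31 for Cldn4, -0.06 to 0.39 for Cldn7, -0.26 to 0.16 for Cldn8, -0.10 to 0.08 for Tjp1 and -0.12 to 0.20 for Tjp3, and in LP rats from -0.09 to 0.29 for Ocln. The LP-NP difference at d28 ranged from -0.21 to 0.10 for Ocln and -0.29 to 0.07 for Tjp1, that of Tjp1 over both days from -0.10 to 0.08, and the change of that of Cldn8 from -0.57 to 0.33. The r of Tjp1 with the luminal level ranged from -0.44 to 0.29. The number of members correlated with the luminal level was 5 or 6 of 9 under the alternatives, and Ocln was the member lost without NP rat 4a or 6a or LP rat 6a of d21. With normexp it was lost too and Cldn1 (r -0.61) gained. In the main fit an unadjusted p under 0.05 was reached by 3 members at d21, 1 at d28 and 5 over both days. Between the days over both diets, 2 reached it. In the same order the number was 6, 5, 5 and 0 with the replicate block and 0, 0, 0 and 2 with the slide row. It was 1, 1, 2 and 0 relative to luminal markers, and 1 at d21 with the groups compared alone. Rats 5a, 5f, 7c and 7f have numbers that occur in 1 diet only. With the replicate block they do not inform the LP-NP difference over both days. Cldn8 is limited by its dim signal.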
